A study of Mus musculus with 4 samples.

Results

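The expression of 8 melanocyte pigmentation genes (Tyr, Tyrp1, Dct, Mlana, Mitf, Slc45a2, Oca2 and Mc1r) was followed in mouse back skin treated with creams. A gene was included where the array's own annotation gives a target that symbol, and a target is a transcript read by a few probes. The 8 genes were read by 14 of the 44170 targets, out of 24171 gene symbols measured in all. RNA came from skin of male BALB/c mice, 8 weeks old, treated for 5 days, with 1 array for each of 4 groups. The Control group received an oil/water cream, the ATRA group a cream with 0.1% all-trans retinoic acid, the NIC group a nicotinamide cream, and the ATRA+NIC group both agents. Pooling of mice and the nicotinamide concentration are not stated in the labels. Mice of all 4 groups are of the same albino strain.

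Melanocytes make melanin in organelles called melanosomes, and in the back skin of mice most of them sit in the bulb of growing hair follicles, where they pass pigment to the hair shaft. Tyrosinase starts the pathway by oxidising tyrosine, Tyrp1 and Dct act on later intermediates, and membrane transporters set the inner conditions of the melanosome. The receptor Mc1r, stimulated by melanocortin peptides, raises cyclic AMP and with it the transcription factor Mitf, which binds the promoters of pigment genes. BALB/c mice are albino because their tyrosinase carries an inactivating missense change, and they also carry the brown allele of Tyrp1. Their follicle melanocytes form melanosomes without pigment, so these genes mark the cells and not pigment made.

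Each value below is an intensity that the authors normalised with RMA, averaged over a gene's targets on the log2 scale. With 1 array per group no difference has a replicate check, so precision is limited by array number. The 5000 random control probes read between 34.0 and 36.3 on the 4 arrays. A reading under 2 times that level is called dim here, and a fold against it is given as a bound with the dim side set to that level. All 8 genes passed the filter on dim genes (at or above the array's median on at least 1 array), as did 14552 symbols in all. Mitf passed it on the NIC array alone. A symbol counted as different where 2 arrays were at least 2-fold apart.

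The pigmentation genes were highest on the NIC array and lowest on the arrays with ATRA. NIC gave the highest reading for 7 of the 8, against 29.1% of all kept symbols, and Mc1r was highest on Control. For Mitf this was set by the filter, which it passed through NIC alone, and without Mitf the count was 6 of 7. Both ATRA arrays were below both arrays without ATRA for 7 of the 8, against 17.9% of all kept symbols, and Mitf was the exception. The full order NIC, Control, ATRA, ATRA+NIC from high to low held for 6 of the 8 and for 6.21% of all kept symbols. Neighbours in this order have no spread to be set against. Tyr is among the 6 on ATRA and ATRA+NIC readings of 94.2 and 93.9, whose difference turned to 0.07 log2 after cyclic loess. For Dct, 1 of the 2 targets read lower on ATRA (585) than on ATRA+NIC (644).

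**Figure D1:**
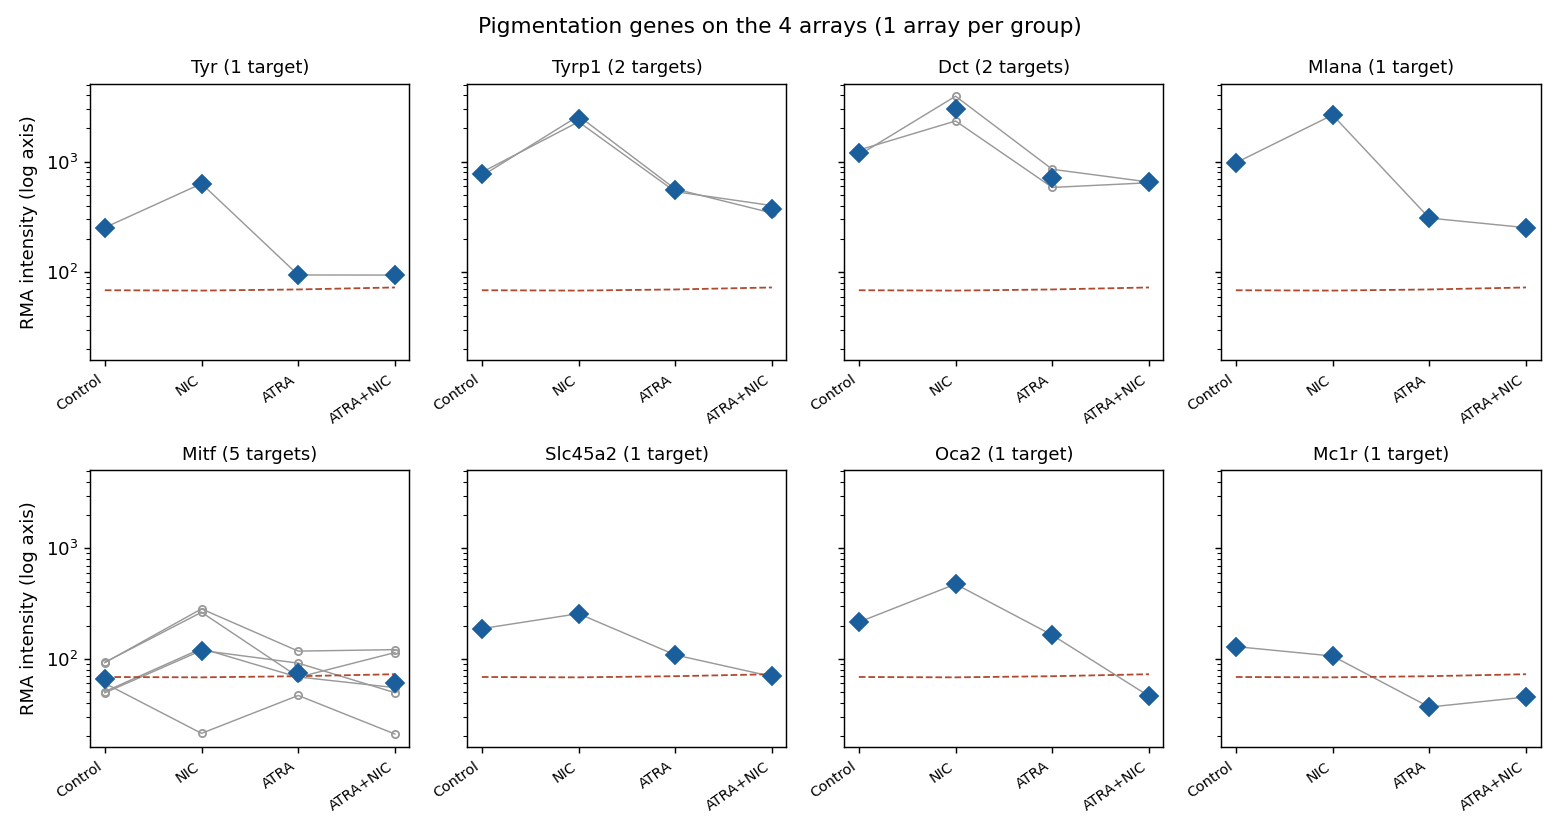
RMA intensity (log axis) of each pigmentation gene on the Control, NIC, ATRA and ATRA+NIC arrays. Blue diamonds are the gene's mean over targets, grey circles joined by lines are single targets, and the dashed line is 2 times the random control probes. The NIC array is highest for 7 of the 8 genes, and the Mc1r readings of both ATRA arrays lie below the dashed line.

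The enzymes of the tyrosinase family come first. Tyr, which encodes tyrosinase, was read by 1 target on chromosome 7 (94577323 to 94641871, build MM9). It read 633 on NIC, 253 on Control, 94.2 on ATRA and 93.9 on ATRA+NIC. Both ATRA arrays were alike and low, and the NIC array stood 2.50-fold above Control. Tyr was 2.69-fold lower on ATRA than on Control and 6.74-fold lower on ATRA+NIC than on NIC.

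Tyrp1, which oxidises a late indole intermediate in mouse melanosomes, was read by 2 targets on chromosome 4, the longer spanning 80480116 to 80497622. The gene read 2441 on NIC, 772 on Control, 550.0 on ATRA and 370.5 on ATRA+NIC. Only the NIC array stood apart from Control by over 3-fold, at 3.16-fold higher, while ATRA was 1.40-fold lower than Control. Its 2 targets gave like values, with ATRA+NIC minus NIC at -2.92 and -2.52 log2 and NIC minus Control at 1.81 and 1.52.

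Dct, the dopachrome tautomerase of the eumelanin pathway, was read by 2 targets on chromosome 14, the longer spanning 118412011 to 118451289. It read 3026 on NIC, 1209 on Control, 706 on ATRA and 649 on ATRA+NIC. The order of the arrays was that of Tyr, with a 1.71-fold lower reading on ATRA than on Control and a 4.66-fold lower one on ATRA+NIC than on NIC. Its targets agreed in direction in both ATRA differences but not in size. ATRA minus Control was -1.12 and -0.43 log2 for the 2 targets, and NIC minus Control was 0.87 and 1.77.

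Mlana encodes melan-A, a small membrane protein of early melanosomes, and its target lies on chromosome 19 (29772430 to 29782796). It read 2648 on NIC, 977 on Control, 308 on ATRA and 253 on ATRA+NIC. These were 3.17-fold and 10.5-fold lower readings with ATRA, without and with nicotinamide. The largest measured fold of any of the 8 genes was that of Mlana between ATRA+NIC and NIC. Oca2 had a measured fold of 10.3 between the same arrays. Its ATRA+NIC reading was dim, so which of these genes had the larger fold cannot be told.

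The melanosomal transporters followed the same order with dimmer readings. Slc45a2, a transporter of the melanosome membrane (chromosome 15, 10930488 to 10957750), read 257 on NIC, 188 on Control, 108 on ATRA and 69.2 on ATRA+NIC. Its ATRA+NIC reading was dim, so it was at least 3.54-fold lower there than on NIC. Oca2, which encodes a melanosomal membrane protein tied to chloride transport and pH (chromosome 7, 63495170 to 63791425), read 475 on NIC, 215 on Control, 164 on ATRA and 45.9 on ATRA+NIC. Oca2 was the one gene of the 8 at least 2-fold lower on ATRA+NIC than on ATRA, by at least 2.26-fold, and against NIC it was at least 6.55-fold lower. On ATRA alone it was 1.31-fold lower than on Control.

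Mc1r, the melanocortin receptor, lies on chromosome 8 (125931307 to 125932609) and departed from the others. It read 106 on NIC, 129 on Control, 36.6 on ATRA and 45.1 on ATRA+NIC. Both ATRA arrays were near the random probes and NIC did not exceed Control. Because of the dim side the fold was at least 1.85 for ATRA against Control and at least 1.46 for ATRA+NIC against NIC. Its measured folds, 3.53 and 2.35, pass 2-fold and these bounds do not.

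Mitf, the transcription factor that drives pigment genes, was dim: it read 119 on NIC, 66.3 on Control, 74.8 on ATRA and 60.0 on ATRA+NIC. Control and ATRA+NIC were under 2 times the random probes, and only NIC stood clearly above them. Its 5 targets on chromosome 6 did not agree. Of these, the target over 97757051 to 97968701 read 284 on NIC, 92.3 on Control, 117 on ATRA and 121 on ATRA+NIC, and was above the dim level on every array. The target over 97941785 to 97968701, which shares its end, read 264 on NIC, 92.9 on Control, 68.5 on ATRA and 54.8 on ATRA+NIC. A target of 386 bases inside the gene read 21.1 on NIC, 60.0 on Control, 46.6 on ATRA and 20.8 on ATRA+NIC and was dim on every array. For the gene NIC minus Control was 0.84 log2 as the mean over targets and 1.62 for its brightest target, and ATRA+NIC minus NIC was -0.98 and -1.23.

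Promoter windows from RefSeq (build GRCm38.p6, from 250 bases before to 50 after an annotated start) are shown because Mitf is known to act through a short element, the M-box, in pigment gene promoters, and Tyr, Tyrp1 and Dct shared one order of arrays. RefSeq windows were found for 6 of the 8 genes (8 windows, 3 of them for Mitf); Mlana and Slc45a2 were not matched. Capitals mark the M-box core TCATGTG on either strand, and in Mitf the cyclic AMP response element TGACGTCA. The windows lie at chr7:87493463-87493762 on the minus strand for Tyr, chr4:80833963-80834262 on the plus strand for Tyrp1, chr14:118052197-118052496 on the minus strand for Dct, chr8:123406832-123407131 on the plus strand for Mc1r and chr6:97991533-97991832 on the plus strand for the most downstream Mitf window.
Tyr: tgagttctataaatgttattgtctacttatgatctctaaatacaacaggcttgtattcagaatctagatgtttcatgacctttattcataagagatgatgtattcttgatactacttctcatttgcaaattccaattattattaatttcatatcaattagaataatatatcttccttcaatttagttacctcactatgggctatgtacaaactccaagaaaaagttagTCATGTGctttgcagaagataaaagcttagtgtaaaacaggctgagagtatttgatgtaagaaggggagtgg
Tyrp1: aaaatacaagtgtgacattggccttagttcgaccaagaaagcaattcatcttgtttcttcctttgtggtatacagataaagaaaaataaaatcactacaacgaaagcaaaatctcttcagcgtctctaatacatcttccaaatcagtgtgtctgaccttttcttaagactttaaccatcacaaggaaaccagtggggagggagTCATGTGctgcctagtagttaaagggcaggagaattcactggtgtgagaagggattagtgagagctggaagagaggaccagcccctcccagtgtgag
Dct: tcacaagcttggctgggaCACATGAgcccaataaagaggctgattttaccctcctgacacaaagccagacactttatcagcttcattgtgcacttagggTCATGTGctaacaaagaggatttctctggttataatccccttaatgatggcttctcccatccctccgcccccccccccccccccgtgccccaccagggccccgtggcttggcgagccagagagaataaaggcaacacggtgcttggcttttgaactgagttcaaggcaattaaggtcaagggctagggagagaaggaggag
Mc1r: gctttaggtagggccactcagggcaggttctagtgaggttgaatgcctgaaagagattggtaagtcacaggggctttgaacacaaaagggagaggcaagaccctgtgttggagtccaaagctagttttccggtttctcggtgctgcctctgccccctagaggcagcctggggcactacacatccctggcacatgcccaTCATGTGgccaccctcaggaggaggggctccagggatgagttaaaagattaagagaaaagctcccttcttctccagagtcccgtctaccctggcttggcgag
Mitf: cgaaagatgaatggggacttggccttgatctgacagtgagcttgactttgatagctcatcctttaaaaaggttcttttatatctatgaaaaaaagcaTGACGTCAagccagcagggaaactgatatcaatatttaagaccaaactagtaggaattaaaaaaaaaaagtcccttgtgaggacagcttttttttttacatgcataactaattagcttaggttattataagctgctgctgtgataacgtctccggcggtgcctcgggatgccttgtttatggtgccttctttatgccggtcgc

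TCATGTG or its reverse complement CACATGA was in the windows of 4 genes, Tyr, Tyrp1, Dct and Mc1r, and in 3.77% of all 32851 windows. The match began at base -22 from the start site in Tyr, -47 in Tyrp1 and -52 in Mc1r, and Dct held 2, at -232 on the opposite strand and at -151. The longer form AGTCATGTG, which contains the core, was in the Tyr and Tyrp1 windows and in 0.274% of all windows. The Oca2 window held only the shorter CATGTG, at -186 as its reverse complement CACATG, which 14.2% of all windows hold on either strand. The element TGACGTCA, which reads the same on both strands, was at -153 in the Mitf window shown and in 1.79% of all windows. These sequences are those of the reference strain C57BL/6J, and a match is a description, not a binding site. Tyr, Tyrp1 and Dct had both the core and the shared order of arrays, Mc1r the core alone and Oca2 the order alone. Any link between matches and readings was not tested.

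**Figure D2:**
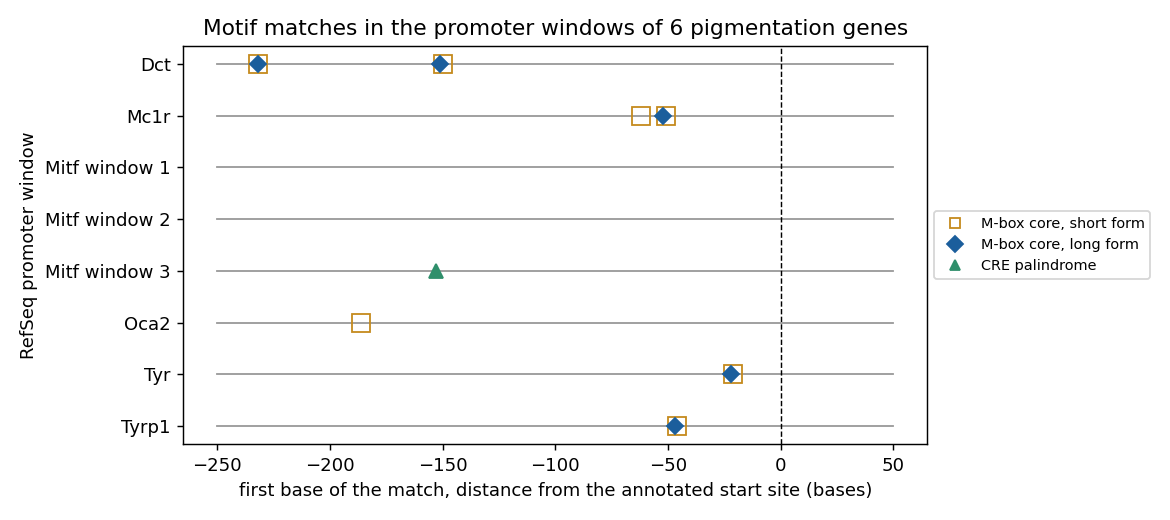
Positions of motif matches in the 8 RefSeq promoter windows of 6 pigmentation genes, as distance in bases from the annotated start site (dashed line). Open squares are CATGTG, filled diamonds (long form in the key) the core TCATGTG and the triangle the cyclic AMP response element. TCATGTG lies at -22 in Tyr, -47 in Tyrp1, -52 in Mc1r and at -232 and -151 in Dct.

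ATRA was set against Control, and ATRA+NIC against NIC, which asks how skin with retinoic acid differs without and with nicotinamide. These 2 differences share no array. Tyr, Mlana and Mc1r were at least 2-fold lower in ATRA minus Control, 3 of the 8, where 5.48% of all kept symbols were. In ATRA+NIC minus NIC 7 of the 8 were, all but Mitf, where 7.59% of all kept symbols were. Lower in both were 3 of the 8, against 1.89% of all kept symbols, and without Mc1r, whose bound is under 2-fold on both sides, the count was 2. None was at least 2-fold higher in either difference, where 4.11% and 6.92% of all kept symbols were, or in both, where 0.832% were. The median over the 8 genes was -0.78 log2 for ATRA minus Control, against -2.47 for ATRA+NIC minus NIC, beside 0.06 and -0.0050 over all kept symbols. In bulk skin fewer melanocytes and less RNA per melanocyte cannot be told apart.

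**Figure D3:**
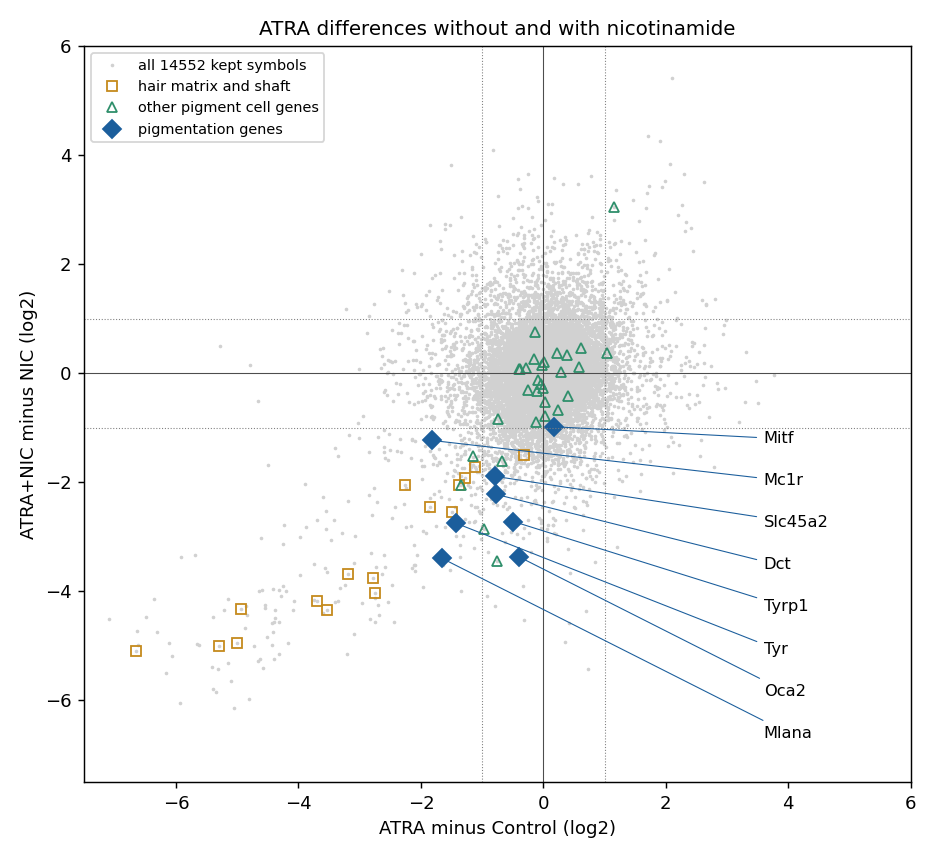
ATRA minus Control (x axis) against ATRA+NIC minus NIC (y axis), both in log2, for all 14552 kept symbols (grey points), the 8 pigmentation genes (blue diamonds, named), other pigment cell genes (triangles) and hair matrix and shaft genes (squares). Dotted lines mark 2-fold. Of the 8 genes 7 lie below the lower dotted line on the y axis and 3 left of the dotted line on the x axis.

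A limma model with additive ATRA and NIC terms, fitted to the 4 arrays, called 0 of the 8 genes for ATRA (Benjamini-Hochberg adjusted p under 0.05), while 0.605% of all kept symbols fell and 0.0137% rose. The smallest adjusted p among the 8 was that of Mlana (log2 effect -2.53, SE 0.48, limma adjusted p = 0.221), followed by Tyr (-2.09, SE 0.41, limma adjusted p = 0.233). At an unadjusted p under 0.05, 7 of the 8 were lower with ATRA, all but Mitf, where 4.43% of all kept symbols were. Its 1 residual degree of freedom is the interaction of both agents, which the next values describe. With dim readings set to 2 times the random probes, limma called Tyr and Mlana as lower with ATRA, where 155 of 15164 symbols fell. It called the same 2 in the deposited value table (of 6 genes, with 145 of 14178 symbols). With the filter at percentile 75 it called them again (of 5 genes, with 159 of 6677 symbols). A gene passes that filter through any 1 array, and Tyr was brightest on NIC (633, against 253 on Control). A pass through NIC favours a value lower with ATRA, so the Tyr call there is not separate from the filter. With an intensity trend it called 6 of the 8, where 307 of 14552 symbols fell.

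Apart from Mc1r, the ATRA differences were lower on the arrays with nicotinamide than on those without. For Mitf the difference was above 0 without nicotinamide (0.17) and below 0 with it (-0.98). The ATRA+NIC minus NIC value was below the ATRA minus Control value by at least 1 log2 for 7 of the 8 genes, where 10.1% of all kept symbols were. Without Mitf, which passed the filter through NIC alone, the count was 6 of 7. The difference of differences was -2.98 for Oca2, -2.23 for Tyrp1, -1.73 for Mlana, -1.45 for Dct, -1.33 for Tyr, -1.16 for Mitf and -1.10 for Slc45a2. For Mc1r it was 0.59, and 0 of the 8 were at or above 1, where 9.74% of all kept symbols were. Oca2 and Slc45a2 include 1 dim reading each, and Mitf and Mc1r include 2 each. With dim readings raised to the dim level the values were -2.32 for Oca2, -1.03 for Slc45a2, -0.85 for Mitf and 0.34 for Mc1r. This quantity uses each of the 4 arrays once, the NIC array included, and no residual spread is left to test it.

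For nicotinamide the pairs were NIC against Control and ATRA+NIC against ATRA. Tyr, Tyrp1, Dct, Mlana and Oca2 were at least 2-fold higher on NIC than on Control, 5 of the 8, where 5.33% of all kept symbols were. None was at least 2-fold lower, where 5.36% of all kept symbols were. On ATRA+NIC against ATRA none was at least 2-fold higher, where 5.0% of all kept symbols were, and Oca2 was lower, where 4.26% were. The median over the 8 genes was 1.23 log2 in NIC minus Control and -0.30 in ATRA+NIC minus ATRA, beside 0.04 and -0.03 over all kept symbols. A value above 0 without ATRA and below 0 with it was seen for 7 of the 8 genes and for 27.9% of all kept symbols. Mitf, which passed the filter through NIC alone, is among the 7. Opposite signs in either order were seen for all 8, against 49.9% of all kept symbols. For Mitf and Tyr this rests on the processing: ATRA+NIC minus ATRA was above 0 for Mitf with dim readings raised (0.11), by its brightest target (0.04) and in the deposited value table (0.15), and for Tyr after cyclic loess (0.07). For Dct, ATRA+NIC minus ATRA was 0.14 for 1 target and -0.38 for the other. For Mc1r it compares 2 dim readings, and it was 0.06 with these raised. None of the 8 genes was at least 2-fold lower in both NIC differences, where 0.502% of all kept symbols were. NIC minus Control uses the same NIC array as ATRA+NIC minus NIC, so these are not separate observations of that array.

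**Figure D4:**
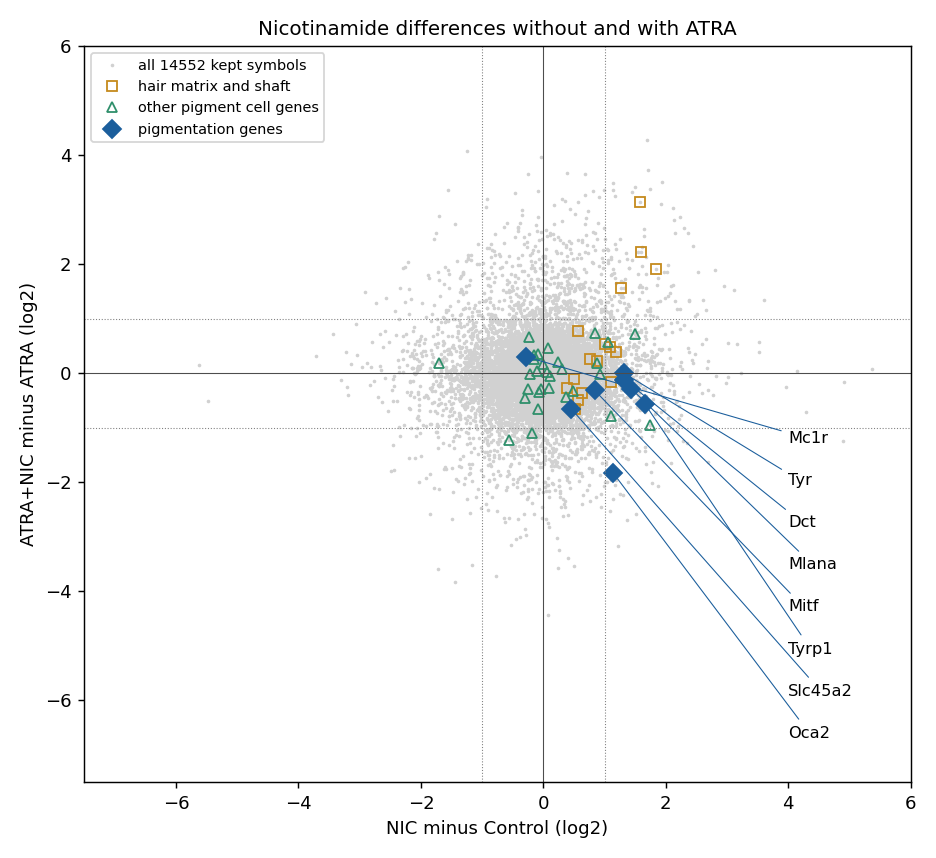
NIC minus Control (x axis) against ATRA+NIC minus ATRA (y axis), both in log2, with the symbols as in the plot of ATRA differences. The pigmentation genes other than Mc1r lie right of 0 and at or below 0 on the y axis, while 4 hair shaft keratins lie beyond 2-fold on both axes.

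The limma fit called 0 of the 8 genes for NIC, with 0 at an unadjusted p under 0.05 and a smallest adjusted p of 0.984, that of Tyr. Over all kept symbols it called 0.0% in either direction, though 767 had an unadjusted p under 0.05. With an intensity trend limma called 32 symbols lower and 93 higher with NIC, and 0 of the 8 genes. ATRA+NIC was also set against Control, and 6 of the 8 were at least 2-fold lower, where 7.0% of all kept symbols were, and 0 were higher, where 5.81% were. Dct, at -0.90 log2, and Mitf, at -0.14, were not.

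Other pigment cell genes were read from a list of 31, of which 30 were measured. Pmel, which forms the fibrils of the melanosome, read 3324 on NIC, 1553 on Control, 791 on ATRA and 457 on ATRA+NIC. Slc24a5, an ion exchanger of the pigment pathway, read 1123 on NIC, 335 on Control, 198 on ATRA and 103 on ATRA+NIC. Both had the order of Tyr, highest on NIC and lowest on ATRA+NIC. Trpm1, a channel gene of melanocytes read by 9 targets, differed by -1.34 and -2.04 log2 in the ATRA differences without and with nicotinamide, with both ATRA readings dim. Gpr143, a melanosomal receptor, was dim on every array.

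The list of 30 holds the pigment cell genes named above and also genes of melanosome transport and assembly that many cells use. Its counts and medians mix both kinds. Most of the 30 were less than 2-fold apart in each ATRA difference, and 27 passed the filter. In ATRA minus Control 2 (Trpm1 and Mcoln3) were at least 2-fold lower. There 2 (Slc7a11 and Bloc1s5) were higher, beside 5.48% lower and 4.11% higher over all kept symbols. In ATRA+NIC minus NIC 5 (Pmel, Slc24a5, Trpm1, Gpnmb and Mcoln3) were lower and 1 higher, beside 7.59% and 6.92%. The list's medians were -0.06 and -0.16 log2, and 0 were called by limma with ATRA. Rab38 and Rab32, GTPases that carry cargo to melanosomes, differed by -0.28 and 0.09 and by -0.04 and -0.20. Mcoln3, an endosomal channel gene with dim ATRA readings, differed by -1.15 and -1.51. Slc7a11, a cystine transporter that feeds pheomelanin synthesis and is used by many cells, went the other way. It read 54.2 on NIC, 177 on Control, 394 on ATRA and 451 on ATRA+NIC, the NIC reading being dim.

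Genes that specify and sustain melanocytes differed less. Sox10, a neural crest transcription factor that switches on Mitf and Dct, read 184 on NIC, 152 on Control, 86.4 on ATRA and 81.7 on ATRA+NIC. It was lower on both ATRA arrays, by -0.82 and -1.17 log2, and NIC stood 0.27 above Control. Ednrb, the endothelin receptor of melanoblasts, differed by -0.65 and -1.13, and Kit, the receptor for stem cell factor, by -0.22 and -0.57. Pax3, an early regulator of Mitf, read between 53.9 and 99.9 and was dim on 3 arrays. In this list of 11, of which 8 passed the filter, 0 were at least 2-fold lower in ATRA minus Control. In ATRA+NIC minus NIC 3 (Sox10, Ednrb and Tfap2b) were, beside 5.48% and 7.59% of all kept symbols in these 2 differences.

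The ligands that act on melanocytes showed no common direction. Kitl, which encodes stem cell factor, differed by -0.33 and -0.40 log2 in the same 2 differences. Edn1 and Edn2, which encode endothelins, read 827 and 211 on NIC against 421 and 56.0 on Control, the last being dim. Both were at least 2-fold lower on ATRA+NIC than on NIC, at -1.55 and -1.96. Of the 13 ligand and signal genes measured, 8 passed the filter. In ATRA+NIC minus NIC 2 of the 13 were lower and 1 was higher (1.88), beside 7.59% and 6.92% of all kept symbols. In ATRA minus Control 1 was lower and 0 were higher, beside 5.48% and 4.11%. Pomc, the source of the melanocortin peptides that bind Mc1r, was dim on every array. Of 16 listed ligand and signal genes 13 were measured, and Edn3, Asip and Atrn were not analysed here.

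Hair matrix and shaft genes were also low on the ATRA arrays. Of 16 measured, 15 were at least 2-fold lower in both ATRA differences, where 1.89% of all kept symbols were. Among them were Krt35, a hair shaft keratin, at -2.78 and -3.76 log2, and Foxn1, a transcription factor of hair keratinocytes, at -1.28 and -1.92. The other 13 were Krt33a, Krt33b, Krt34, Krt36, Krt81, Krt83, Krt85, Dlx3, Lef1, Dsg4, Padi3, Tchh and S100a3, of which Dsg4 was dim on both ATRA arrays. The intensities of the 16 summed to 216210 on NIC, 100608 on Control, 13680 on ATRA and 20628 on ATRA+NIC, and those of the 8 pigmentation genes to 9705, 3809, 2043 and 1586 on the same arrays in that order. Limma called 8 of the 16 as lower with ATRA, where 0.605% of all kept symbols fell. The part of these hair genes' levels in the pigmentation gene values was not tested.

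The NIC differences of the hair and pigmentation lists were set side by side, and the difference between the lists was not tested. NIC was the highest array for 16 of the 16 hair genes and 7 of the 8 pigmentation genes, against 29.1% of all kept symbols. Mitf, which passed the filter through NIC alone, is among the 7. Both ATRA arrays were below both others for 16 hair and 7 pigmentation genes, against 17.9%. In NIC minus Control 8 of the 16 and 5 of the 8 were at least 2-fold higher, against 5.33%. Krt33a, Krt34, Krt81 and Krt83, 4 of the 16, were at least 2-fold higher in both NIC differences, where 0.886% of all kept symbols were, and 0 of the 8 pigmentation genes were. The list medians in ATRA+NIC minus ATRA were 0.33 log2 for hair matrix and shaft genes and -0.30 for the pigmentation genes. In ATRA minus Control they were -2.77 and -0.78. Of the 16 hair genes 6 were below 0 in ATRA+NIC minus ATRA, as were 7 of the 8 pigmentation genes, so the lists overlapped.

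Other cell types of skin were read for comparison. Of 7 basal keratinocyte genes 0 were at least 2-fold apart in any of the 4 differences above, and Krt5 and Krt14, their keratins, differed by 0.52 and 0.10 log2 in ATRA minus Control. Of 7 fibroblast genes 1, the matrix proteoglycan gene Lum, was at least 2-fold higher in both ATRA differences, at 1.07 and 1.05. Of all kept symbols 0.832% were. Of 7 follicle bulge genes, 6 of which passed the filter, 0 were at least 2-fold lower in ATRA minus Control. In ATRA+NIC minus NIC 3 (Krt15, Lhx2 and Sox9) were, beside 5.48% and 7.59% of all kept symbols in these 2 differences. Schwann cells share the neural crest origin of melanocytes. Of 9 measured Schwann cell genes, 6 of which passed the filter, 0 were at least 2-fold lower in ATRA minus Control. In ATRA+NIC minus NIC 2 (Egr2 and Ngfr) were, beside the same 5.48% and 7.59% of all kept symbols. Pmp2 and Gldn were higher in ATRA minus Control, where 4.11% of all kept symbols were.

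**Figure D5:**
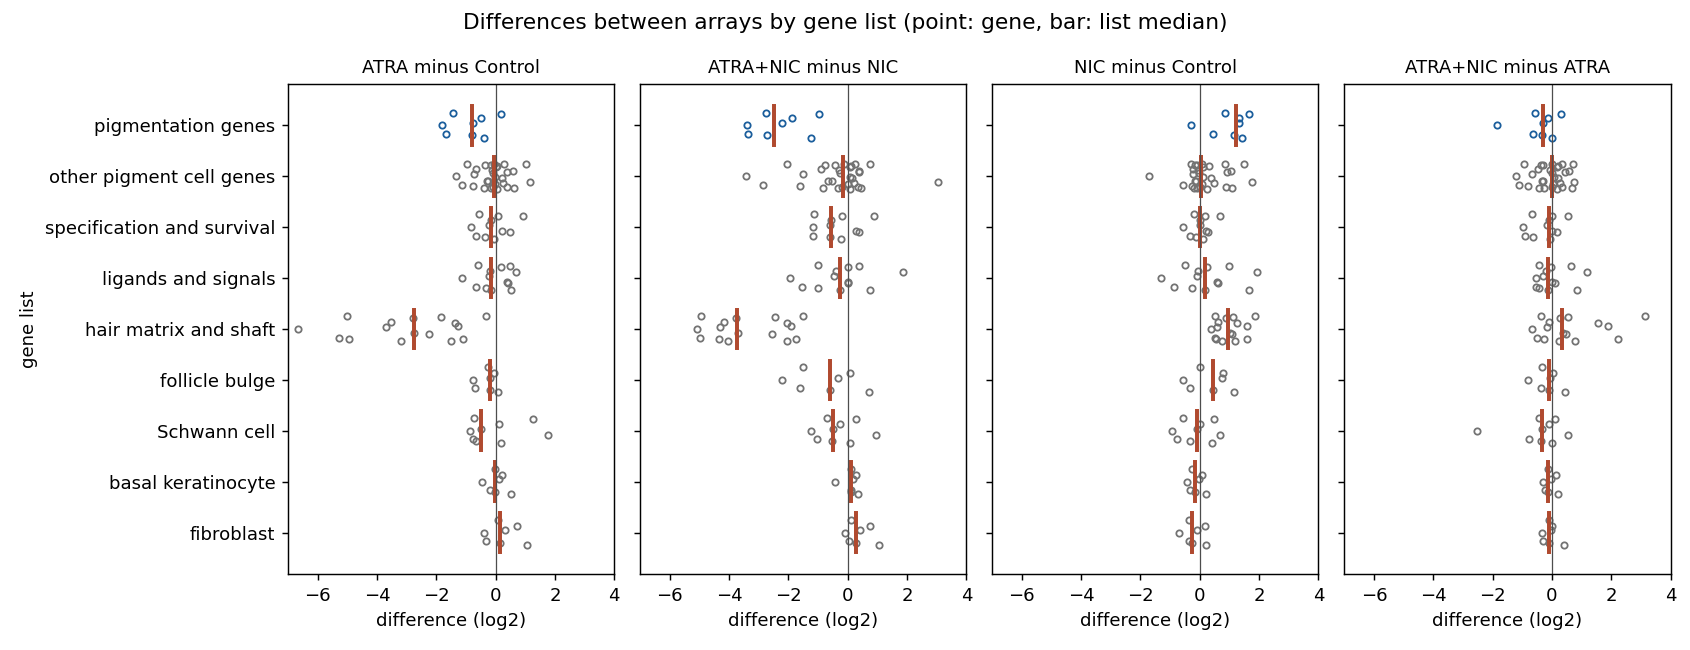
Differences between arrays in log2 (x axis, one panel per difference) for the measured genes of 9 lists (rows). Points are genes and red bars are list medians. The pigmentation genes have medians of -0.78, -2.47, 1.23 and -0.30 from the left panel to the right, and the hair matrix and shaft genes have -2.77, -3.72, 0.94 and 0.33.

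The kept symbols with the pattern most like the mean of the 8 genes were named by the smallest root mean square distance of log2 values centred on each gene's mean over the 4 arrays. The mean profile was 1.30 on NIC, 0.31 on Control, -0.59 on ATRA and -1.02 on ATRA+NIC. The 5 nearest named symbols outside the lists were Gng4 (distance 0.07), Pram1 (0.08), Hap1 (0.11), Ptger4 (0.11) and Wnk4 (0.11), where the median symbol was at 0.94. Gng4, a G protein gamma subunit gene, read 308 on NIC, 156 on Control, 79.0 on ATRA and 54.5 on ATRA+NIC, the last being dim. Pram1 was also dim on ATRA+NIC, and Ptger4 and Wnk4 were dim on both ATRA arrays. Hap1 was above the dim level on every array. Among the lists Krt15, a keratin of basal and bulge cells, was nearest at 0.11, and it differed by -0.69 and -2.20 in the ATRA differences. Among the 8 genes Dct was nearest to their own mean at 0.17 and Mitf farthest at 0.61. Of all kept symbols 903, Mitf and the other 7 genes included, were at Mitf's distance or nearer.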

How the data were processed

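Labelled RNA of 4 skin samples was hybridised to NimbleGen 1-colour Cy3 arrays, per the labels. The authors deposited a linear intensity per target, with RMA named in the files' names. Tool versions were not given in the sources used here. A deposited value table holds the same intensities for 24323 targets at 50 or above on all 4 arrays. The 4 columns of a workbook and 4 per-array columns were not used. Targets were named by gene ID for 39057 targets, log2 was taken with no pseudocount, and targets of a symbol were averaged (Python 3.11.15, pandas 2.3.3). The additive fit used limma 3.58.1 in R 4.3.3 (lmFit and eBayes, terms ATRA and NIC, adjusted over 14552 symbols). It was also run on simulated data with additive ATRA effects and no interaction of both agents. That run cannot show how the fit treats genes with such an interaction. Named genes were the 8 members, a fixed set from each list, every list gene at least 2-fold the same way in both differences of an agent that share no array, and the 5 nearest patterns; Gpnmb, Rab38, Rab32, Bloc1s5, Edn1, Edn2, Tfap2b, Krt15, Lhx2, Sox9, Egr2, Ngfr, Pmp2 and Gldn fall outside this rule and were chosen after their values were seen. Members and lists were chosen with earlier results of these data known. Alternatives covered normalization, dim readings, target summary, value source, filter and variance trend. Some named genes of the Schwann cell list are not reported here.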

Additional observations from a re-analysis of the deposited data

Results flagged for a closer look

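For all 8 genes the nicotinamide difference had one sign without ATRA and the other sign with it, on 1 array per side, and the difference between these effects was not tested. The opposite signs were not seen for Mitf under 3 alternatives, where the second value was between 0.04 and 0.15, nor for Tyr after cyclic loess, where it was 0.07. Over all kept symbols 49.9% had such opposite signs. Values are NIC minus Control, then ATRA+NIC minus ATRA, then the second minus the first, in log2. Tyr gave 1.32, -0.0043 and -1.33, and Tyrp1 gave 1.66, -0.57 and -2.23. Dct gave 1.32, -0.12 and -1.45, and Mlana gave 1.44, -0.29 and -1.73. Mitf gave 0.84, -0.32 and -1.16, and Slc45a2 gave 0.45, -0.65 and -1.10. Oca2 gave 1.14, -1.84 and -2.98, and Mc1r, in the opposite sense, gave -0.28, 0.30 and 0.59. For Tyr the second value is close to 0. The 2 Dct targets gave second values of 0.14 and -0.38, and that of Mc1r compares 2 dim readings. Mitf also had ATRA differences of opposite sign, 0.17 without and -0.98 with nicotinamide, which differ by -1.16 and were not tested.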

How the results depend on the processing

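Under the 6 alternatives of scaling, dim readings, target summary and value source, 178 of 184 single-gene differences kept their side of 2-fold, 4 moved past it (Mitf by its brightest target and in the value table), 2 fell short of it (Mc1r with dim readings raised), and 0 changed sign past 2-fold. Of the values under 2-fold, ATRA+NIC minus ATRA turned from -0.32 to 0.11, 0.04 and 0.15 for Mitf (dim readings raised, brightest target, value table) and from -0.0043 to 0.07 for Tyr (cyclic loess). Counts lower in ATRA+NIC minus NIC ranged from 6 to 8, in ATRA minus Control from 2 to 3 and in ATRA+NIC minus Control from 4 to 6. Counts higher in NIC minus Control ranged from 5 to 6. In the deposited value table, which holds 6 of the 8 genes, 0 were at least 2-fold lower in ATRA+NIC minus ATRA, since Oca2 is not in it. Members that fell with ATRA by limma numbered 2 of 8 with dim readings raised and 2 of 6 in the deposited value table. They numbered 2 of 5 with the filter at percentile 75, which a gene passes through any 1 array. With an intensity trend they numbered 6 of 8, against 0 in the other settings. The cause was not tested. Over all symbols those settings called 155, 145, 159 and 307 that fell, of 15164, 14178, 6677 and 14552 tested. They called 24, 27, 26 and 185 that rose, against 88 that fell and 2 that rose of 14552 in the main fit. With no filter 8 rose, and median centring, loess, quantile and the brightest target gave 0 that rose. With NIC the trend called 32 that fell and 93 that rose against 0 and 0. No paired analysis was possible because each group has 1 array, and no array could be left out. Signal over background limits Mitf, Mc1r, Slc45a2 and Oca2.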
